A study of Mus musculus with 19 samples.

Results

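The genes described here are 40 mouse genes of the antioxidant system: the transcription factor gene Nfe2l2, which encodes NRF2, its inhibitor gene Keap1, and enzymes of glutathione, thioredoxin, NADPH, superoxide, peroxide and quinone metabolism. They were taken by gene symbol from a list drawn up by function, with earlier results of these data known, and all 40 were found among the 36528 gene IDs of the deposited tables. Polyadenylated RNA was sequenced in 19 libraries that fall into 4 groups: sorted alveolar type II (AT2) cells of mice labelled Etv5KO (5 libraries) and of control mice (4 libraries), and lung tissue of Etv5KO mice (5 libraries) and of control mice (5 libraries). Controls carried SpcCreERT2 and RosatdTomato. Etv5KO mice carried both of these alleles as well, with Etv5ko/loxp, a knockout allele of Etv5 opposite a loxP-flanked one. All mice received tamoxifen at 100 mg/kg over 5 days and were left for another 5 days, so controls carry the active Cre recombinase and the reporter too. The Cre is driven by the surfactant protein C promoter, which is active in AT2 cells. In lung tissue of Etv5KO mice the other cell types keep their loxP-flanked allele and also carry the knockout allele. No Etv5 allele is named for controls, so in lung the genotypes differ in these cells too, which cannot be told apart from AT2 cells. AT2 cells were sorted as EpCAM+, tdTomato+, CD45- and CD31-. The labels give neither age nor sex, nor the mouse that each AT2 or lung library came from. Of the 5 mice per genotype in the design, 1 control has no AT2 library analysed here. Etv5 is a gene of the PEA3 group of ETS transcription factors, and by its title the study looked for the genes it controls.

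NRF2 is held in the cytoplasm and sent for degradation by KEAP1, whose reactive cysteines sense electrophiles and oxidants; when KEAP1 is modified, NRF2 enters the nucleus and binds antioxidant response elements (AREs) with small MAF proteins. Its known targets supply glutathione, reduce thioredoxin and peroxiredoxins, provide NADPH and conjugate or reduce electrophiles. Control of NRF2 is largely through the stability of the protein, so its RNA level is not a measure of its activity. The alveolar surface meets inhaled oxygen and is bathed in a lining fluid rich in glutathione.

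Total counts per library were 17426415 to 26722625 in Etv5KO AT2 cells, 20279607 to 28671262 in control AT2 cells, 20332410 to 22478603 in Etv5KO lung and 14971793 to 26989453 in control lung. Levels are given in CPM, counts divided by the size of the library, with sizes scaled by TMM over all 19 libraries. The targeted gene, Etv5, ran from 615 to 761 CPM in Etv5KO AT2 libraries, against 636 to 718 CPM in control AT2 libraries, and from 94.4 to 120 CPM in Etv5KO lung, against 92.9 to 112 CPM in control lung. Counts over a whole gene model do not show whether a loxP-flanked stretch is missing, so the labels were not checked by this gene, and Etv5KO stands throughout for the label of a library. The 12 AT2 markers summed to between 160900 and 209200 CPM in Etv5KO AT2 libraries and between 181600 and 279200 CPM in control AT2 libraries, against 22830 to 31920 CPM in Etv5KO lung and 27150 to 34820 CPM in control lung. A pair of libraries stood apart from their group on principal components of log CPM: control AT2 library 2 scored 41.1 on the second component, with the other control AT2 libraries between -8.18 and 1.69, and control lung library 1 scored 29.4 on the first, with the other control lung libraries between -21.3 and -10.4. Control lung library 1 also had the highest mesenchymal marker sum of its group (6765 CPM, the others 2913 to 3875 CPM) and the lowest airway secretory sum (16160 CPM, the others 26880 to 30500 CPM).

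The promoters of 3 genes are shown because only these, of the genes that passed between genotypes in AT2 cells, had a RefSeq promoter. Of the 40 genes, 33 had a RefSeq promoter on GRCm38.p6, a window from 250 bases before to 50 bases after the start of transcription. Gclc, Gsta4, Hmox1 and Sod3, which also passed, had none in the source used and were not searched. The core of the antioxidant response element was searched as TGACNNNGC on both strands. It was in the windows of 11 of these 33 genes (33.3%), with 14% of 27025 genes holding it in windows of the same length; the 11 were G6pdx, Gclm, Gsta3, Gstm5, Mgst1, Nfe2l2, Pgd, Prdx1, Sod1, Srxn1 and Txnrd1. The AP-1-like TGANTCA, which reads as a TGANTCA on the other strand too, was in 4 of 33 (12.1%, with 8.97% of all genes), and the ETS core CCGGAA, searched on both strands, in 5 of 33 (15.2%, with 16.7% of all genes). These are matches of letters in a short window, with no test and no measure of binding. Below, the 250 bases before each start site are given 5′ to 3′ on the gene's strand, with a TGACNNNGC match in capitals for Gsta3 (chr1:21240335-21240584, plus strand) and TGANTCA matches in capitals for Srxn1 (chr2:152105274-152105523, plus strand). The stretch for Gstt1 (chr10:75797732-75797981, minus strand) held none of the 3 motifs.
Gsta3: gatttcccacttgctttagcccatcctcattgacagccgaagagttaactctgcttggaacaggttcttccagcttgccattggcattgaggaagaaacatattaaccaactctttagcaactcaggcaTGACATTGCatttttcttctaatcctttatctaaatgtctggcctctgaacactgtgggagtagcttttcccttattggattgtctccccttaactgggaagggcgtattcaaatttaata
Srxn1: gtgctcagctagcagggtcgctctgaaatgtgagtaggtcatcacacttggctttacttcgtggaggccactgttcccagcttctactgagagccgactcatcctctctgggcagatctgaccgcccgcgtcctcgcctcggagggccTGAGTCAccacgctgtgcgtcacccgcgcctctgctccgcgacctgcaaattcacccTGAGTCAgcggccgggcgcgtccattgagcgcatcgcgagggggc
Gstt1: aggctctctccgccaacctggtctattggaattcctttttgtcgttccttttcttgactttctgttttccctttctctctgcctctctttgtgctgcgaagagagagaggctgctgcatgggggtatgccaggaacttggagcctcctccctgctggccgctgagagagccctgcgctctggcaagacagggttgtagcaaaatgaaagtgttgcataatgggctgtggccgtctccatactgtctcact
The Gsta3 match began 121 bases before the start site. The Srxn1 TGANTCA matches began 102 and 45 bases before it, and Srxn1 held its TGACNNNGC match on the opposite strand, 28 bases after the start, outside the stretch printed.

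In AT2 cells, 4 of the 40 genes rose and 3 fell in Etv5KO against control (edgeR quasi-likelihood test, two-sided, Benjamini-Hochberg adjusted p under 0.05 over all 14939 genes tested). The genes that rose were Gclc, Srxn1, Gstt1 and Sod3, and those that fell were Gsta3, Gsta4 and Hmox1. The share called was 17.5% of the 40, with 9.87% of all genes tested called: 751 higher (5.03%) and 723 lower (4.84%), a split of 894 and 482 when libraries were scaled by their size alone. Scaled by size alone, 5 of the 40 were higher and 3 lower. The median log2 fold change of the 40 was 0.06, with -0.01 over all genes. All 40 passed the filter on low counts in each comparison. Without a correction, 11 of the 40 had a p under 0.05. The libraries of the groups did not overlap for 4 genes that were higher (Gclc, Srxn1, Pgd and Nqo1) and 3 that were lower (Gsta3, Gsta4 and Hmox1), with 5.9% of all genes not overlapping as higher and 6.49% as lower, 12.4% in all.

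**Figure D1:**
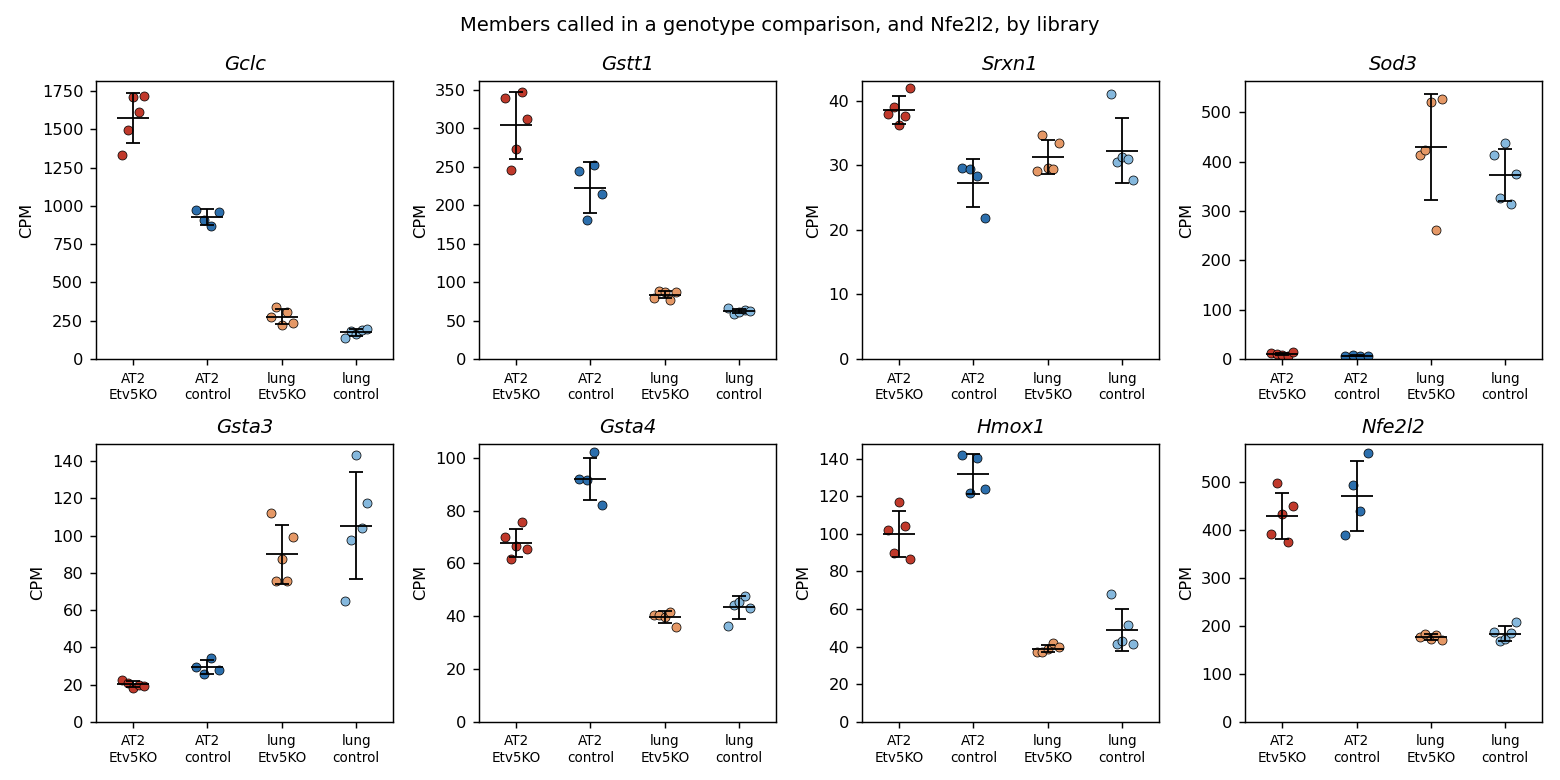
CPM of Gclc, Srxn1, Gstt1, Sod3, Gsta3, Gsta4, Hmox1 and Nfe2l2 (y axes, each from 0) in every library of Etv5KO AT2 cells, control AT2 cells, Etv5KO lung and control lung (x axis). A point is a library, and the bar and whiskers are the mean ± SD. Every Etv5KO AT2 library lies above every control AT2 library for Gclc (1332 CPM or more, against 974 CPM or less), and Sod3 is low in AT2 cells next to lung.

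The regulators themselves did not pass. Nfe2l2 had 391, 497, 433, 374 and 449 CPM in Etv5KO AT2 cells, against 390, 493, 439 and 560 CPM in control AT2 cells. The groups overlapped nearly along their whole range (log2 fold change -0.13, SE 0.11, 95% interval -0.38 to 0.12, adjusted p = 0.57, edgeR). Keap1 had 77.3, 87.7, 81.4, 93.5 and 81.1 CPM in Etv5KO AT2 cells, against 88.0, 73.8, 81.8 and 79.7 CPM in control AT2 cells. It likewise overlapped between the groups (log2 fold change 0.06, SE 0.07, 95% interval -0.10 to 0.23, adjusted p = 0.69, edgeR).

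Among the 5 genes of glutathione synthesis and recycling, 1 rose. Gclc (Entrez Gene 14629, chromosome 9) encodes the catalytic subunit of glutamate-cysteine ligase, the rate-limiting enzyme of glutathione synthesis. It had 1332, 1495, 1711, 1614 and 1714 CPM in Etv5KO AT2 cells, against 974, 906, 868 and 962 CPM in control AT2 cells. Every Etv5KO library was above every control library, and the mean was 1573 ± 162 CPM (SD, n = 5) against 927 ± 49.4 CPM (SD, n = 4), a fitted 1.70-fold rise (log2 0.77, SE 0.10, adjusted p = 0.00039, edgeR). Gclm, the modifier subunit that raises the enzyme's affinity for glutamate, had 21.5, 20.3, 22.7, 21.5 and 22.8 CPM in Etv5KO AT2 cells, against 20.6, 20.6, 19.4 and 18.6 CPM in control AT2 cells, and did not pass (log2 fold change 0.14, 95% interval -0.03 to 0.31, adjusted p = 0.32, edgeR). Gss, which adds glycine to complete glutathione, and Gsr, which reduces oxidised glutathione, did not pass either (log2 fold changes 0.23 and 0.16). Exons of other genes on the opposite strand overlap 15.4% of Gss, 13.9% of Gstm5, 13.6% of G6pdx and 10.9% of Keap1, and whether the counting used strand was not given in the sources used here. Slc7a11, the cystine carrier of system xc-, was at 0.17 to 0.83 CPM in Etv5KO and 0.43 to 1.07 CPM in control AT2 libraries, from 4 to 22 counts a library, too few to set a direction (log2 fold change -0.54, 95% interval -1.49 to 0.42).

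Since RPKM values account for gene length, the 2 subunits could be set against each other with the deposited size-factor-adjusted RPKM. Gclc averaged 389 ± 40.01 in Etv5KO AT2 cells (SD, n = 5) and 226 ± 13.5 in control AT2 cells (SD, n = 4), and Gclm 9.99 ± 0.43 and 8.97 ± 0.50 in the same groups. The ratio of Gclc to Gclm was 33.4, 39.7, 40.6, 40.5 and 40.5 in Etv5KO AT2 libraries, against 25.5, 23.7, 24.1 and 27.9 in control AT2 libraries. In Etv5KO lung it was 3.42 to 5.61, against 1.95 to 2.91 in control lung. The ratio was chosen after the values were seen and is given without a test. It was higher in every Etv5KO library than in every control library of the same tissue, as was Gclc alone.

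**Figure D2:**
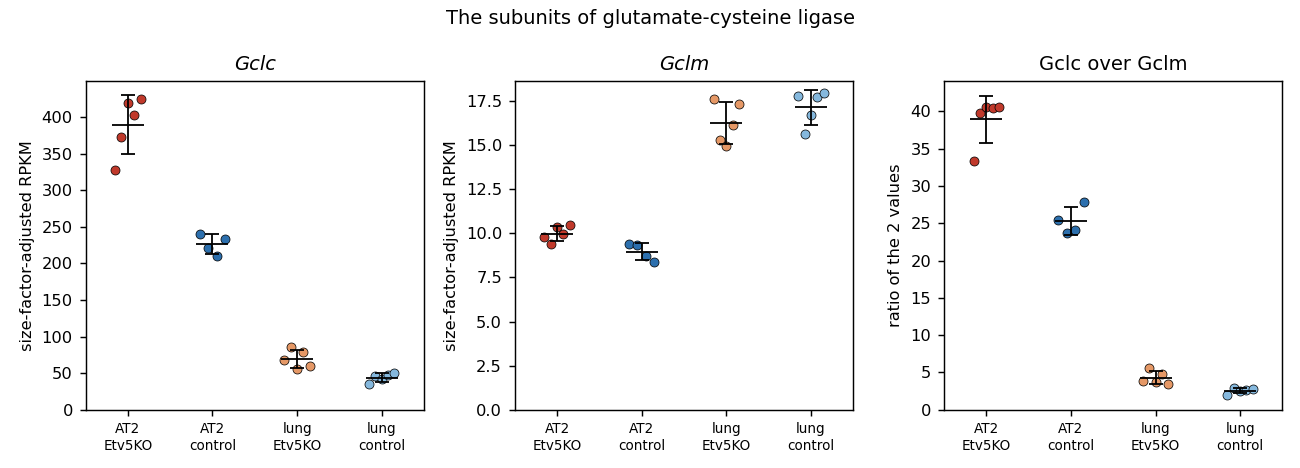
Deposited size-factor-adjusted RPKM of Gclc (left) and Gclm (middle) and the ratio of these values (right) in each library of the 4 groups on the x axis; points are libraries, bars and whiskers the mean ± SD. Gclc lies higher and Gclm lower in the AT2 groups than in the lung groups, and the ratio averages 38.9 in Etv5KO AT2 cells, 25.3 in control AT2 cells, 4.30 in Etv5KO lung and 2.56 in control lung.

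Of the 5 genes of the thioredoxin system, 1 rose. Srxn1 encodes sulfiredoxin, which reduces hyperoxidised peroxiredoxins and is a known NRF2 target. It had 37.9, 39.1, 36.3, 37.6 and 42.1 CPM in Etv5KO AT2 cells, against 29.6, 29.4, 28.4 and 21.8 CPM in control AT2 cells, with no overlap (log2 fold change 0.50, SE 0.10, adjusted p = 0.0065, edgeR). Txnrd1 (thioredoxin reductase), Txn1 (thioredoxin), Prdx1 and Prdx6 (peroxiredoxins) did not pass, with log2 fold changes of 0.02 to 0.44. Prdx6, which also has phospholipase activity on surfactant lipids, had 489, 482, 1004, 581 and 411 CPM in Etv5KO AT2 cells, against 397, 337, 419 and 600 CPM in control AT2 cells. Its spread within the groups exceeded the difference between them (95% interval of the log2 fold change -0.10 to 0.99).

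The 4 genes of NADPH supply did not pass, and their log2 fold changes lay between 0.01 and 0.21. The one nearest to the threshold was Pgd, 6-phosphogluconate dehydrogenase of the pentose phosphate pathway, with 301, 289, 286, 318 and 304 CPM in Etv5KO AT2 cells, against 278, 255, 251 and 254 CPM in control AT2 cells. Its groups did not overlap, and its adjusted p was 0.062 (edgeR; log2 fold change 0.21, SE 0.06); it passed with DESeq2 and with scaling by library size. G6pdx, Taldo1 and Tkt, which encode glucose-6-phosphate dehydrogenase, transaldolase and transketolase, had 95% intervals within 0.5 on either side of 0 on the log2 scale, as did Pgd.

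Of the superoxide dismutases and catalase, Sod3 rose. It encodes the secreted, matrix-bound superoxide dismutase and was low in sorted cells: 11.3, 11.0, 8.58, 6.97 and 14.3 CPM in Etv5KO AT2 cells, against 5.27, 7.30, 6.76 and 6.17 CPM in control AT2 cells, with 1 Etv5KO library below the highest control (log2 fold change 0.71, SE 0.20, adjusted p = 0.042, edgeR). Control lung held 315 to 437 CPM of Sod3. The 10 mesenchymal markers, genes of a lung cell class outside the sort, summed to 79.7 to 144 CPM in Etv5KO AT2 libraries and 67.6 to 123 CPM in control AT2 libraries, none of the 10 passed between genotypes (edgeR; 3 had an unadjusted p under 0.05). All 10 had a log2 fold change above 0, between 0.04 and 0.65 with a median of 0.43, and their part in the Sod3 value was not tested. Sod1 and Sod2, the cytosolic and mitochondrial dismutases, had log2 fold changes of 0.15 and -0.08 and did not pass. Cat, the peroxisomal catalase, had 1018, 1043, 1101, 1225 and 771 CPM in Etv5KO AT2 cells, against 1556, 1077, 1468 and 1476 CPM in control AT2 cells. Only control library 2, which stood apart from the others, lay within the Etv5KO range (log2 fold change -0.43, SE 0.14, adjusted p = 0.077, edgeR). Without that library its log2 fold change was -0.53 (adjusted p = 0.018, edgeR), and over all alternatives its adjusted p ran from 0.018 to 0.20, under the threshold with DESeq2 and in 1 fit of all 4 groups too. Of the 4 glutathione peroxidases, Gpx1, Gpx2, Gpx3 and Gpx4, none passed (log2 fold changes -0.10 to 0.31, none under an unadjusted p of 0.05 and none by DESeq2).

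**Figure D3:**
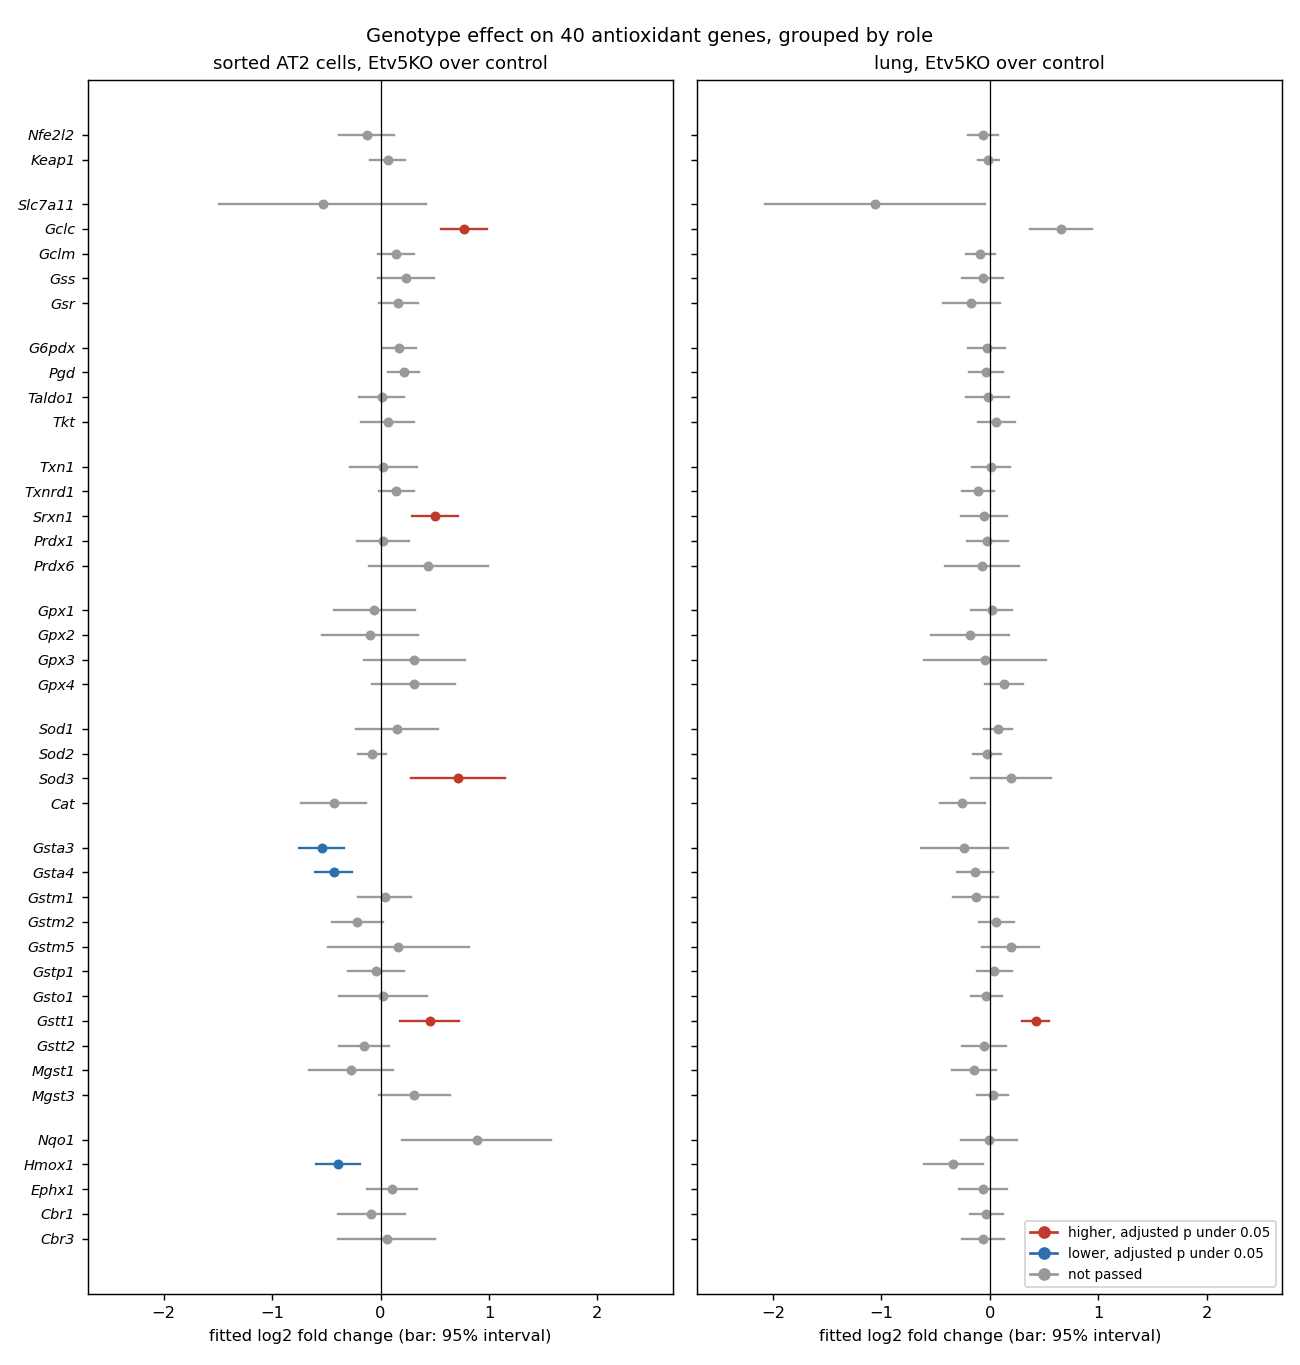
Fitted log2 fold change of Etv5KO over control (x axis) for the 40 genes, grouped by role down the page, in AT2 cells (left panel) and lung (right panel); a point is the edgeR estimate, the bar its 95% interval, and colour marks genes with an adjusted p under 0.05. In AT2 cells 7 genes are coloured, between -0.54 for Gsta3 and 0.77 for Gclc, and in lung only Gstt1 is, at 0.42.

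Of the 11 glutathione S-transferases, which join glutathione to electrophiles, 1 rose and 2 fell. Gsta3 and Gsta4 are alpha-class enzymes, and Gsta4 is known for clearing 4-hydroxynonenal, a product of lipid peroxidation. Gsta3, whose promoter stretch above holds the ARE core, had 22.5, 20.6, 18.01, 19.98 and 19.4 CPM in Etv5KO AT2 cells, against 29.6, 25.8, 34.3 and 27.6 CPM in control AT2 cells (log2 fold change -0.54, SE 0.10, adjusted p = 0.0037, edgeR). Gsta4 had 70.0, 61.7, 66.5, 75.7 and 65.5 CPM in Etv5KO AT2 cells, against 92.1, 91.7, 102 and 82.2 CPM in control AT2 cells (log2 fold change -0.43, SE 0.08, adjusted p = 0.0046, edgeR). Both were lower in every Etv5KO library than in any control library. Gstt1, the theta-class enzyme, went the other way, with 340, 246, 273, 347 and 312 CPM in Etv5KO AT2 cells, against 244, 181, 253 and 214 CPM in control AT2 cells. Etv5KO library 2 lay below the highest control library (log2 fold change 0.45, SE 0.12, adjusted p = 0.041, edgeR). Its theta-class neighbour in name, Gstt2, did not pass (log2 fold change -0.15), nor did the mu-class genes Gstm1, Gstm2 and Gstm5, the pi-class Gstp1, the omega-class Gsto1 and the microsomal Mgst1 and Mgst3 (log2 fold changes -0.27 to 0.31). Windows of 50 bases that also occur in transcripts of other genes made up 34.7% of Gpx4, 33.7% of Gstp1, 21% of Sod2 and 18.9% of Gstm1, so uniquely aligned counts of these genes may miss reads; the 7 genes that passed had 0.273% or less.

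Hmox1, heme oxygenase 1, a widely used NRF2 target that is also repressed by BACH1, fell. It had 102, 89.8, 117, 104 and 86.5 CPM in Etv5KO AT2 cells, against 142, 122, 141 and 124 CPM in control AT2 cells, with no overlap (log2 fold change -0.40, SE 0.09, adjusted p = 0.019, edgeR). Nqo1, NAD(P)H quinone dehydrogenase 1, another common NRF2 reporter gene, was low in AT2 cells, with 9 to 76 counts a library, at 3.15, 4.01, 2.11, 2.71 and 3.20 CPM in Etv5KO, against 1.90, 2.04, 1.99 and 0.534 CPM in control libraries. Its groups did not overlap, but it did not pass (log2 fold change 0.89, SE 0.31, 95% interval 0.20 to 1.58, adjusted p = 0.11, edgeR); DESeq2 gave an adjusted p of 0.046. Ephx1 (microsomal epoxide hydrolase), Cbr1 and Cbr3 (carbonyl reductases) did not pass, with log2 fold changes of -0.08 to 0.11. Of the 40 genes, 21 had a 95% interval within 0.5 of 0 on the log2 scale and 37 within 1.

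Leaving out libraries touched 3 of the 7 calls. Gclc, Srxn1, Gsta3 and Gsta4 passed in each of the 9 fits that left out an AT2 library. Gstt1 lost its call without Etv5KO library 1, 4 or 5 or control library 1, 2 or 4 (adjusted p up to 0.10), Sod3 without Etv5KO library 1, 2 or 5 or control library 1, 3 or 4 (up to 0.11), and Hmox1 without control library 1 or 3 (0.072 and 0.071). Without control library 1 the count of genes called fell to 4. Without control library 2, which stood apart, the log2 fold change was 0.76 for Gclc, 0.55 for Srxn1, 0.79 for Sod3, -0.60 for Gsta3, -0.43 for Gsta4 and -0.43 for Hmox1, all of which passed, and 0.37 for Gstt1 (adjusted p = 0.076). Cat passed in that fit, so that 3 of the 40 genes were called higher and 4 lower, and the median log2 fold change of the 40 was -0.03.

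Markers listed for other epithelial cells moved with the genotype in the sorted libraries. Between genotypes in AT2 cells, 5.03% of all genes tested were called higher and 4.84% lower (edgeR), the shares to set beside the counts of markers called between genotypes. The 12 airway secretory markers summed to 7982 to 9877 CPM in Etv5KO AT2 libraries, against 4791 to 7058 CPM in control AT2 libraries, with 5 of 12 higher and 1 (Cckar) lower. Cyp2f2, a club cell cytochrome, averaged 359 ± 19.5 CPM in Etv5KO and 114 ± 32.0 CPM in control AT2 cells, while Scgb1a1, the main secretory product of club cells, overlapped, at 240 to 562 CPM in Etv5KO and 228 to 564 CPM in control. The 10 AT1 markers summed to 4073 to 4578 CPM in Etv5KO, against 3022 to 3762 CPM in control (4 higher, 1 lower), and the 8 ciliated markers to 167 to 221 CPM, against 108 to 127 CPM (2 higher of 6 tested). The AT2 list had 4 of 12 lower. In control AT2 cells against control lung, 5 of the 12 airway secretory markers were higher and 6 lower (edgeR). Of the 10 AT1 markers, 2 were higher and 8 lower, with 35.6% of all genes higher and 38.9% lower. The airway secretory and AT1 sums thus include genes with more RNA in sorted AT2 cells than in lung, and are not specific to other cells. Of the cell classes outside the sort, the endothelial sum was 281 to 354 CPM in Etv5KO and 299.9 to 362 CPM in control, with 1 of 10 higher and 1 lower, and the macrophage sum 70.5 to 91.0 CPM and 54.9 to 97.0 CPM in the same groups, with 1 of 11 higher. The lymphocyte sum was 45.6 to 65.7 CPM and 27.5 to 49.2 CPM, with 1 of 6 tested higher, and the neutrophil sum 4.14 to 22.4 CPM and 9.02 to 17.6 CPM, with none of 5 tested under an unadjusted p of 0.05. No marker of these lists was at 0 in all libraries of a group. The part of these cells in the values above was not tested, and in bulk samples fewer cells of a type cannot be told apart from less RNA in each cell.

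In lung tissue, 1 of the 40 genes (2.5%) passed, with 0.415% of 17098 genes called (35 higher, 0.205%, and 36 lower, 0.211%); 5 of the 40 had an unadjusted p under 0.05. The median log2 fold change of the 40 was -0.03, with -0.01 over all genes. Gstt1 had 79.6, 88.4, 87.2, 77.1 and 87.0 CPM in Etv5KO lung, against 65.7, 58.9, 61.0, 64.2 and 61.8 CPM in control lung. Every Etv5KO library was above every control library (83.8 ± 5.11 against 62.3 ± 2.65 CPM, SD, n = 5 each; log2 fold change 0.42, SE 0.05, adjusted p = 0.0044, edgeR), and the call held in each of the 16 alternatives tried for lung. The libraries of Gclc and Gstt1 did not overlap, both higher in Etv5KO, and none was lower without overlap; over all genes 0.977% were higher and 0.544% lower without overlap, 1.52% in all. Gclc had 272, 341, 224, 310 and 233 CPM in Etv5KO lung, against 140, 181, 165, 189 and 197 CPM in control lung. Its adjusted p was 0.062 (edgeR; log2 fold change 0.66, SE 0.13, 1.58-fold); over the alternatives it ran from 0.00043 to 0.15, under the threshold with scaling by library size, with no filter on low counts, with DESeq2 and in 1 fit of all 4 groups. Without control lung library 1, which stood apart, the log2 fold change was 0.44 for Gstt1 (adjusted p = 0.0071) and 0.58 for Gclc (0.074).

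The other genes that passed in AT2 cells did not pass in lung. Srxn1 had 29.1 to 34.7 CPM in Etv5KO lung, against 27.7 to 41.0 CPM in control lung (log2 fold change -0.05). Hmox1 had 37.2 to 41.7 CPM in Etv5KO lung, against 41.2 to 67.7 CPM in control lung (log2 fold change -0.33, adjusted p = 0.66, edgeR); its highest value was that of control library 1. Sod3, Gsta3 and Gsta4 had log2 fold changes of 0.20, -0.24 and -0.14. Nfe2l2 had 169 to 183 CPM in Etv5KO lung and 168 to 207 CPM in control lung, Keap1 67.2 to 70.6 CPM and 67.5 to 72.4 CPM, and Nqo1 5.74 to 8.67 CPM and 7.34 to 8.86 CPM in the same groups, with adjusted p of 0.98, 0.99 and 0.998 (edgeR). Of the 40 genes, 32 had a 95% interval within 0.5 of 0 on the log2 scale and 39 within 1. The exception was Slc7a11, at 1.59 to 3.47 CPM in Etv5KO lung, against 2.65 to 15.7 CPM in control lung, where control library 1 alone reached 15.7 CPM and the next 5.04 CPM.

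The difference of the genotype effects, AT2 cells minus lung, was tested as an interaction over all 19 libraries. None of the 40 genes passed (edgeR; 1.59% of 17698 genes called, 0.791% higher and 0.802% lower; 8 of the 40 had an unadjusted p under 0.05, and DESeq2 called 1, Srxn1). For Srxn1 the difference was 0.55 on the log2 scale (SE 0.14, adjusted p = 0.064, edgeR; 0.014 by DESeq2). The difference was 0.10 for Gclc (95% interval -0.25 to 0.45) and 0.02 for Gstt1 (95% interval -0.27 to 0.31). For Nqo1 it was 0.88 (95% interval 0.21 to 1.55, adjusted p = 0.25) and for Gsta4 -0.31 (95% interval -0.54 to -0.08, adjusted p = 0.25).

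Within control mice, 36 of the 40 genes (90%) differed between sorted AT2 cells and lung, 21 higher and 15 lower in AT2 cells, with 74.5% of 17118 genes called (6092 higher, 35.6%, and 6662 lower, 38.9%). The libraries of 21 genes were all higher and of 13 all lower in AT2 cells, with 66.5% of all genes not overlapping (30.6% higher and 35.9% lower). The control libraries are those used against Etv5KO above. Scaling by library size alone moved the median of all genes by over 0.1, to -0.42 from -0.01 on the log2 scale, turned the split over all genes to 3318 higher and 9484 lower and that of the 40 to 18 and 20, and changed the sign for Keap1 (0.23, against -0.18 with library sizes alone, past the threshold in both), Gss (0.001126 and -0.41) and G6pdx (0.35 and -0.06); 18 genes were higher and 15 lower under both scalings. Gclc had the largest difference towards AT2 cells, at 927 ± 49.4 CPM in control AT2 cells (SD, n = 4) and 175 ± 22.8 CPM in control lung (SD, n = 5), a fitted 5.32-fold difference (log2 2.41, SE 0.10, adjusted p = 1.2e-09, edgeR). Cat (log2 1.87), Gstt1 (1.84), Hmox1 (1.43), Gstt2 (1.36), Nfe2l2 (1.36), Tkt (1.28), Mgst1 (1.15), Gsta4 (1.09) and Gpx4 (1.03) were the other genes above 1 on the log2 scale. Scaled by library size alone, Nfe2l2 (0.95), Gstt2 (0.95), Tkt (0.87), Mgst1 (0.73), Gsta4 (0.68) and Gpx4 (0.61) were below 1. Nfe2l2 averaged 471 ± 72.8 CPM in control AT2 cells and 184 ± 15.2 CPM in control lung.

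At the other end, 10 genes were below -1 on the log2 scale, and with library sizes alone Gclm (-1.30), Gsr (-1.07) and Cbr3 (-1.41) were too. Gpx3, the secreted glutathione peroxidase of plasma, averaged 10.7 ± 1.295 CPM in control AT2 cells (SD, n = 4) and 793 ± 224 CPM in control lung (SD, n = 5; log2 -6.21), and Sod3 6.37 ± 0.87 and 374 ± 53.0 CPM in the same groups (log2 -5.87). Both enzymes are secreted. Gsto1 (log2 -3.87), Gstm5 (-3.38), Slc7a11 (-3.01), Gstm2 (-2.46), Nqo1 (-2.25), Gstm1 (-1.98), Gsta3 (-1.84) and Gpx2 (-1.04) were lower in AT2 cells too. The Slc7a11 value rested in part on control lung library 1, and without it the log2 fold change was -2.26. The glutathione S-transferases thus split by gene: 5 of 11 were higher in AT2 cells (Gsta4, Gstt1, Gstt2, Gstp1 and Mgst1) and 6 lower. The smallest of the lower ones, Mgst3 (log2 -0.34, adjusted p = 0.026, edgeR), overlapped between the groups and lost its call without control AT2 library 1, 2 or 4 or control lung library 4 (adjusted p up to 0.10). The subunits of glutamate-cysteine ligase went opposite ways, with Gclm lower in AT2 cells (19.8 ± 0.98 against 36.8 ± 2.13 CPM; log2 -0.89, SE 0.07).

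**Figure D4:**
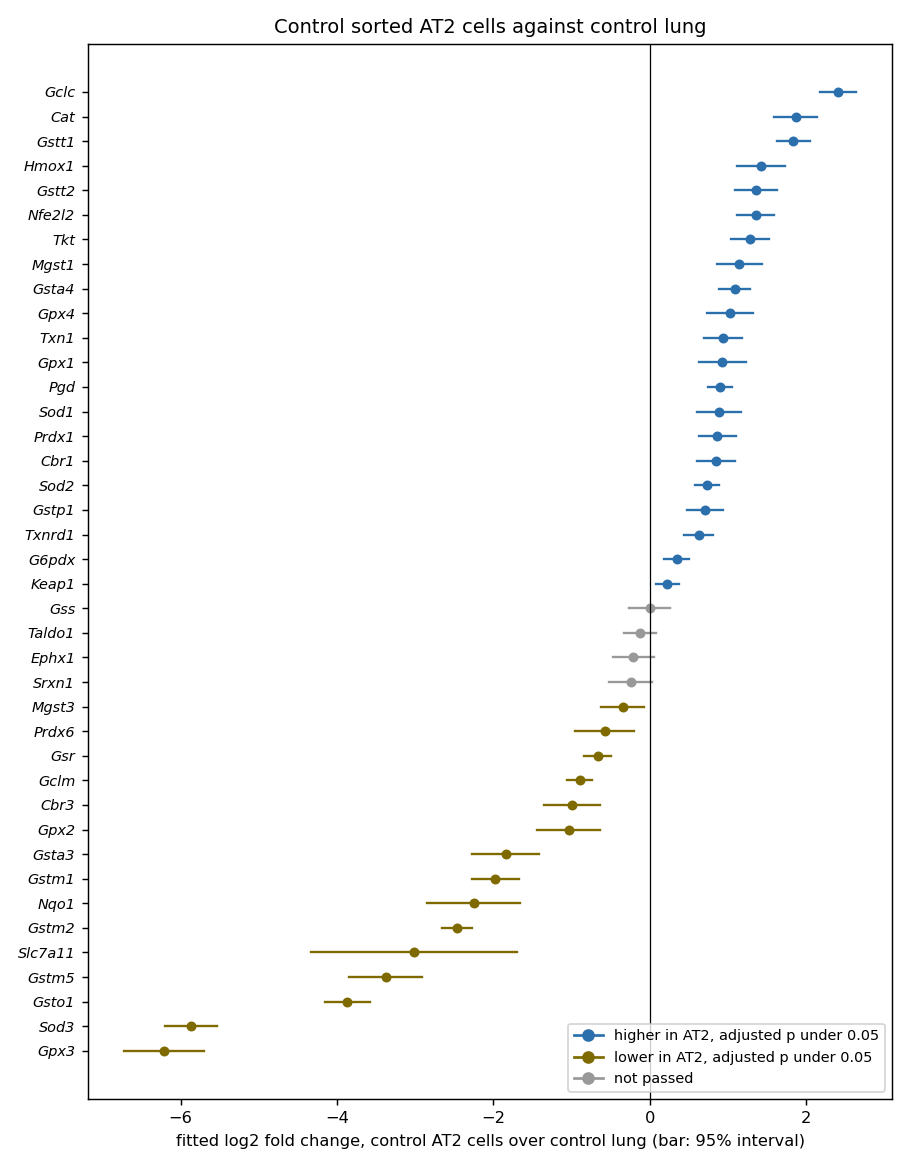
Fitted log2 fold change of control AT2 cells over control lung (x axis) for the 40 genes, ordered by value down the page; points are edgeR estimates, bars 95% intervals, colours the direction of genes with an adjusted p under 0.05. The values run from 2.41 for Gclc to -6.21 for Gpx3, and Gss, Taldo1, Ephx1 and Srxn1 are the 4 that did not pass.

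Levels per length, from the deposited size-factor-adjusted RPKM, placed Gclc among the most abundant of the 40 RNAs in AT2 cells. In Etv5KO AT2 cells the order began with Gclc (389 ± 40.01), Sod1 (376 ± 75.0), Cat (361 ± 59.0), Gpx1 (338 ± 69.8) and Mgst1 (289 ± 68.1; SD, n = 5 each). In control AT2 cells it began with Cat (480.0 ± 74.5), Gpx1 (348 ± 76.0), Mgst1 (345 ± 62.1), Sod1 (336 ± 69.4) and Gclc (226 ± 13.5; SD, n = 4 each). Libraries of neighbours in each of these runs overlapped, so their exact order is not fixed. Nfe2l2 stood at 165 ± 19.0 in Etv5KO and 179 ± 27.2 in control AT2 cells, and Keap1 at 17.95 ± 1.497 and 16.98 ± 1.299. The lowest were Nqo1 (1.87 and 0.979), Gstm5 (0.748 and 0.648) and Slc7a11 (0.052 and 0.071). In lung Gpx3 was first, at 495 ± 190 in Etv5KO and 506 ± 143 in control tissue (SD, n = 5 each), and Gclc stood at 69.5 ± 12.6 and 43.9 ± 5.95.

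**Figure D5:**
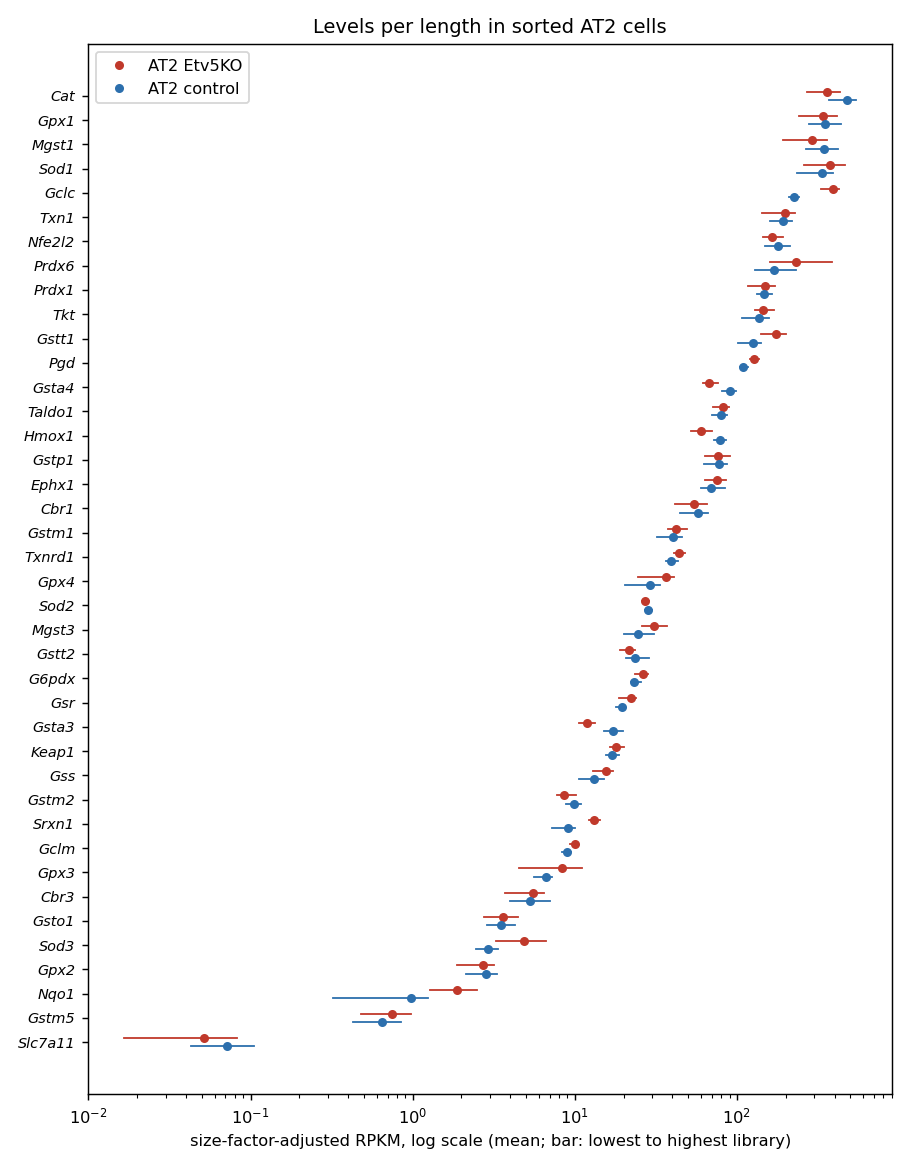
Deposited size-factor-adjusted RPKM (x axis, log scale) of the 40 genes in Etv5KO and control AT2 cells; points are group means and bars run from the lowest to the highest library. Gclc is at 389 in Etv5KO and 226 in control AT2 cells, and Slc7a11 at 0.052 and 0.071.

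Beyond the 40, 92 further genes of the same pathways were read from lists. In AT2 cells 80 of them passed the filter, of which 5 rose and 5 fell (12.5%, close to the 9.87% of all genes called), and in lung none of 87 passed, with 0.415% of all genes called (edgeR; 6 of the 87 had an unadjusted p under 0.05). By list, none of 12 NRF2 partners and regulators passed in AT2 cells (edgeR; 1 had an unadjusted p under 0.05); of the other NRF2 targets 3 of 28 rose and 3 fell (21.4%), of the other glutathione enzymes 1 of 21 rose and 1 fell (9.52%), and of the other thioredoxin, peroxiredoxin and dismutase genes 1 of 19 rose and 1 fell (10.5%), with 5.03% of all genes higher and 4.84% lower. Abcc3, an organic anion and glucuronide exporter, had 190, 216, 194, 201 and 200 CPM in Etv5KO AT2 cells, against 145, 141, 145 and 142 CPM in control AT2 cells (log2 fold change 0.49, SE 0.06, adjusted p = 0.00026, edgeR). Selenop, the secreted selenium carrier, fell, with 1005, 694, 878, 1019 and 749 CPM in Etv5KO AT2 cells, against 1798, 1352, 2256 and 1886 CPM in control AT2 cells (log2 fold change -1.06, SE 0.15, adjusted p = 0.0011, edgeR). Ugt1a6a and Ugt1a6b, which encode UDP-glucuronosyltransferases and share exons at 1 locus, rose by 0.47 and 0.49. Both are counted separately among the other NRF2 targets that rose, though their counts may share reads. Oplah, 5-oxoprolinase of glutathione breakdown, rose by 0.28. Ptgr1, prostaglandin reductase 1, fell by 0.42 on the log2 scale.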

How the data were processed

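Polyadenylated RNA was sequenced in 19 mouse libraries. Per the file headers, the authors deposited a count of uniquely aligned reads for each gene model and, in a second column, RPKM that the authors adjusted by a size factor per sample; given 1 factor per library and 1 length per gene, the RPKM follow from the counts (largest log residual 2.69e-14). Per the submitters' processing notes, GSNAP was used and the genome build was mm9. The annotation and the counting tool, like any use of strand, were not given in the sources used here. Of 36528 gene IDs, 31049 were named with a RefSeq table of GRCm38.p6, holding 98.721% of counts. Promoters are RefSeq's on that build, not mm9, and are printed with its coordinates; shared 50-base windows and exon overlaps come from GENCODE vM21 transcripts.

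Each comparison was fitted on the counts of all genes with edgeR 4.0.16 in R 4.3.3 (filterByExpr with a minimum count of 10 and total of 15, TMM, quasi-likelihood F test, two-sided, Benjamini-Hochberg threshold 0.05), AT2 cells and lung separately, control AT2 cells against control lung, and the interaction over all libraries. A gene rose, fell or was called where its adjusted p was under 0.05. The test was also run on simulated counts, drawn independently for each library with the dispersions that edgeR fitted. Such counts cannot show how the test behaves with libraries that stand apart, and no conclusion is drawn from them. Alternatives were RLE and library-size scaling, no filter, DESeq2 1.42.0, limma-voom (limma 3.58.1), 1 fit of all 4 groups and leaving out each library. Libraries were numbered in accession order. The number of libraries limits the precision, and p-values set the fitted difference between groups against the spread of libraries within groups.

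The members and lists were chosen with earlier results of these data known. Full values are given for members that passed in a genotype comparison and for Nfe2l2, Keap1, Gclc, Nqo1 and Hmox1. Up to 6 genes of the wider lists were chosen by p. Of these, Abcc3 and Selenop are given in full, and Ugt1a6a, Ugt1a6b, Oplah and Ptgr1 by log2 fold change alone. Gclm, Pgd, Cat, Prdx6 and Slc7a11 were added after their values were seen.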

Additional observations from a re-analysis of the deposited data

Results flagged for a closer look

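Among the 160 sets formed by a gene and a group, 13 held a library far from the others of its group by Dixon's criterion at 95%; chance flags about 1 in 20, or 8. Control AT2 library 4 was low for Nqo1 (0.534 CPM, the next 1.90), Srxn1 (21.8 CPM, the next 28.4) and Gsr (51.5 CPM, the next 56.4). Control AT2 library 1 was high for Pgd (278 CPM, the next 255) and G6pdx (70.3 CPM, the next 62.9), both of the pentose phosphate pathway. In Etv5KO AT2 cells, library 3 was high for Prdx6 (1004 CPM, the next 581) and library 2 low for Gpx4 (31.6 CPM, the next 48.5).

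In Etv5KO lung, library 1 was high for Prdx6 (869 CPM, the next 605) and low for Nqo1 (5.74 CPM, the next 7.91) and Slc7a11 (1.59 CPM, the next 2.98), and library 4 was high for Pgd (158 CPM, the next 135). Control lung library 1, which stood apart on principal components, was high for Slc7a11 (15.7 CPM, the next 5.04) and Srxn1 (41.0 CPM, the next 31.3).

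The airway secretory marker Cyp2f2 differed in its genotype effect between the tissues: the log2 fold change of Etv5KO over control was larger in AT2 cells than in lung by 1.95 (SE 0.27, adjusted p = 0.0003, edgeR interaction), at 1.66 in AT2 cells and -0.30 in lung.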

How the results depend on the processing

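No paired analysis was possible because the labels give no number that AT2 and lung libraries or genotypes share. The interaction and the comparison of control AT2 cells with control lung therefore treat all libraries as independent. Their SE and p-values do not account for AT2 and lung libraries that may come from 1 mouse. In AT2 cells the count of the 40 genes called kept within 1.5 times of 7 under the scalings, filter and tools tried; leaving out a library gave 4 to 7, and 1062 to 1587 over all genes. In lung, 2 of the 40 (Gclc and Gstt1) passed with scaling by library size, no filter, DESeq2 or 1 fit of all 4 groups, against 1; over all genes DESeq2 called 192 and 1 fit of all 4 groups 122, against 71. Leaving out a lung library gave 1 to 1 of the 40 and 44 to 80 over all genes, with 44 without control library 4 and 47 without control library 3. For the interaction, DESeq2 called 455 genes, against 282, and 1 of the 40 (Srxn1); leaving out a library gave 0 to 1 (Srxn1, without control lung library 5, adjusted p = 0.043) and 198 to 319. For control AT2 cells against control lung, leaving out a library gave 35 to 37 of the 40 and 12038 to 12986 over all genes. In AT2 cells Sod3 had an adjusted p of 0.064 by limma-voom, and Nqo1 passed by DESeq2 (0.046) and in 1 fit of all 4 groups (0.029). Scaled by library size, signs turned for values near 0 in lung, Keap1 (0.004003) and Nqo1 (0.006022), and, in control AT2 cells against control lung, between 2 passing calls for Keap1 (-0.18, adjusted p = 0.022, against 0.23, 0.0074) and from a call to none for G6pdx (-0.06, against 0.35). Leaving out a library gave log2 fold changes in lung of -0.051 to 0.083 for Nqo1, -0.022 to 0.00386 for Keap1 and -0.092 to 0.045 for Srxn1, and interactions of -0.045 to 0.112 for Gstt1 and -0.134 to 0.038 for Nfe2l2. The causes were not tested. Depth limits Nqo1 (9 to 76 counts a library in AT2 cells), Gstm5 (7 to 18) and Slc7a11 (4 to 22).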

Other observations

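The other genes of the wider pathway lists that passed in AT2 cells are given here, chosen after their values were seen. Me1 and Idh1, cytosolic enzymes that make NADPH outside the pentose phosphate pathway, fell. Me1 had 166, 118, 109, 135 and 120 CPM in Etv5KO AT2 cells, against 202, 182, 204 and 160 CPM in control AT2 cells (log2 fold change -0.52, SE 0.12, adjusted p = 0.017, edgeR), and Etv5KO library 1 lay within the control range. Idh1 had 138, 91.2, 117, 110 and 105 CPM in Etv5KO AT2 cells, against 183, 137, 167 and 145 CPM in control AT2 cells (log2 fold change -0.49, SE 0.12, adjusted p = 0.022, edgeR). Its groups overlapped too, as Etv5KO library 1 (137.7 CPM) lay just above control library 2 (137.4 CPM). Both also belong to lipid synthesis as sources of NADPH. Mgst2, a microsomal glutathione S-transferase, fell, at 1.93 ± 0.46 CPM in Etv5KO AT2 cells (SD, n = 5) and 4.18 ± 1.46 CPM in control AT2 cells (SD, n = 4). Its levels were low and its libraries overlapped between the groups. Msra, a methionine sulfoxide reductase, rose to 40.7 ± 2.19 CPM in Etv5KO, against 31.4 ± 3.37 CPM in control AT2 cells.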
